A study of Mus musculus with 6 samples.

Results

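The transcripts described here are those of the ribosomal proteins and the translation initiation factors of mouse liver. Genes were taken by name from the deposited table: symbols beginning Rpl or Rps followed by a digit, Rplp0 to Rplp2, Rpsa, and symbols beginning Eif1 to Eif6, leaving out the kinases named Eif2ak and Rps6k, pseudogene symbols and 1 further gene. The rule found 135 genes of 14499, with 87 ribosomal protein names and 48 initiation factor names. Of these, 133 reached the level needed for testing, which was at least 1 FPKM (fragments per kilobase of gene, scaled to the mapped fragments of the library) in at least 3 of the 6 libraries.

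RNA-seq of total liver RNA was used to compare 3 libraries of livers whose hepatocytes lack Arid1a (Arid1a_KO_DDC) with 3 libraries of wild-type livers (WT_DDC). Arid1a encodes a subunit of the BAF chromatin remodelling complex. Animals of both groups were 10 weeks old, of a mixed C57Bl/6 and 129Sv background, and had been injured for 2 weeks with DDC, a porphyrinogenic compound that damages bile ducts and hepatocytes, so no uninjured liver was part of the comparison. The labels used here do not state what drives the deletion in hepatocytes, the animals' sex, or whether each library is its own animal, so p-values measure the spread between libraries, which may be technical.

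A ribosome consists of a large and a small subunit, each built on ribosomal RNA with a fixed set of proteins. Initiation factors bring the small subunit to the start codon: eIF2 delivers the initiator tRNA and is recharged by eIF2B, eIF4F binds the cap and unwinds the leader, eIF3 bridges the messenger RNA and the small subunit, and eIF5B joins the subunits. Messenger RNAs of ribosomal proteins and of several translation factors start with a C and a run of pyrimidines, the terminal oligopyrimidine or TOP motif, through which the mTOR pathway controls their translation as a set. Ribosome production is one of the costliest tasks of a growing hepatocyte.

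The start sites below are shown because the TOP run, where present, lies at the start of the messenger RNA. RefSeq starts were taken as annotated, and the starts used in these livers were not determined. Each line gives 20 bases before the RefSeq start and 20 from it (GRCm38.p6, 5′ to 3′ on the gene's strand). Capitals mark a run of at least 5 pyrimidines, counted from a C within 5 bases of the start, and a line without capitals holds no such run. Bases before that C were not considered, so pyrimidines can precede the capitals. Rps6 (chr4:86857348-86857387, minus strand), Rps27 (chr3:90213629-90213668, minus strand) and the eIF2 gamma genes Eif2s3x (chrX:94212632-94212671, minus strand) and Eif2s3y (chrY:1010575-1010614, plus strand) hold such a run. Rps7 (chr12:28635934-28635973, minus strand) and Eif4e2 (chr1:87213891-87213930, plus strand) do not. The windows taken for Rps19, Rpl9, Rpl37 and Eif4a1, which are not printed, hold none either.
Rps6: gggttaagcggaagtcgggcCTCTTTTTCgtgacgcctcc
Rps27: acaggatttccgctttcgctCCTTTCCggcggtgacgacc
Eif2s3x: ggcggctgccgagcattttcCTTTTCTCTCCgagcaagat
Eif2s3y: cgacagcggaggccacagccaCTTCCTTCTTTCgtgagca
Rps7: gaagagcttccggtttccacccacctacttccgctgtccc
Eif4e2: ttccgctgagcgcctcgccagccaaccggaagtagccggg

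RefSeq start sites were matched for 102 of the 135 members, 57 of 77 core ribosomal proteins and 38 of 48 initiation factors. Such a run was read on the gene's own strand, whatever the bases before it. A gene with several RefSeq starts was counted if any of them matched, here and for the letters below, so shares depend on the starts per gene. The windows above show only the first start listed. Counted from a C at an annotated start itself, the run was present in 13 of 57 core ribosomal protein genes (22.8%) and 2 of 38 initiation factor genes (5.26%). The share was 2.92% of 9582 protein-coding genes of the deposited table. Within 5 bases of the start it was present in 47.4% of the core ribosomal protein genes, 26.3% of the initiation factor genes and 23.9% of the protein-coding genes. The letters CCGGAAG, of the kind bound by ETS factors, were found on either strand of the 300-base promoter in 42.1% of core ribosomal protein genes and 36.8% of initiation factor genes, against 19.6% of protein-coding genes. The letters TATAAA were found in 10.5% of each of the member sets, against 9.33% of protein-coding genes. These matches describe letters in a window and not sites in use.

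Between 11280 and 11712 genes per library reached 1 FPKM, and estimated depth was 0.904 to 1.15 relative to WT_DDC replicate 1, with absolute depth unknown. A short overlapping mitochondrial gene, mt-Atp8, made up 35.7% to 42.8% of the summed FPKM in knockout libraries and 10.7% to 49.5% in wild-type libraries, which moves any share of the total. Arid1a itself was at 6.61, 5.01 and 3.81 FPKM in knockout livers and at 7.85, 5.48 and 5.98 FPKM in wild-type livers, with overlapping groups (log2 difference -0.29, SE 0.22, limma adjusted p = 0.678). A value for the whole gene includes exons that a deletion can leave and RNA of other liver cells, and so cannot serve as a check of the genotype. The hepatocyte markers checked, among them Alb and Ttr, summed to 51530 to 64779 FPKM in knockout and 50049 to 53297 FPKM in wild-type livers. Of the 15 markers 9 had a positive and 6 a negative difference, and 0 passed by limma. By unadjusted p under 0.05, 2 were higher (Ttr at 0.60 and Tdo2 at 0.95) and 2 lower (Cyp3a11 at -0.60 and Cyp2e1 at -1.29). The shares of all genes were 4.65% higher and 6.5% lower.

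No ribosomal protein or initiation factor transcript passed the test between knockout and wild-type livers. Of 133 tested members 0 were higher and 0 lower at an adjusted p under 0.05 by limma, against a background of 0.135% higher and 0.355% lower (0.49% in either direction) among 11839 genes. At an unadjusted p under 0.05, 2 members were higher, Eif4e2 and Rps27rt, and 0 lower, against 4.65% and 6.5% of all genes. In 9 members every knockout library was above every wild-type library and in 0 the reverse held, against 7.09% and 9.56% of all genes, so the count in the upward direction was near the background. These 9 were Eif1ad, Eif2s1, Eif3i, Eif4e2, Eif5a, Rpl4, Rpl5, Rpl9 and Rpl22. The median standard error of a log2 difference was 0.17 for core ribosomal proteins and 0.15 for initiation factors, so differences of the size seen in most members were within the error of 3 against 3 libraries.

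**Figure D1:**
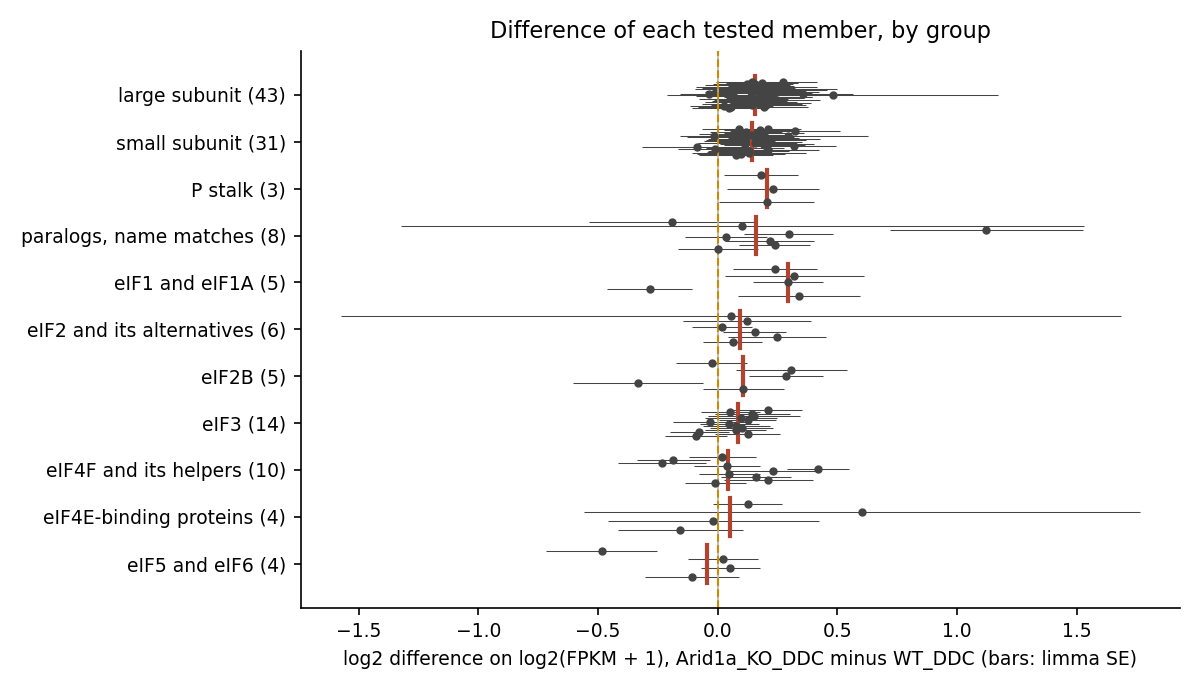
Log2 difference of each tested member on log2(FPKM + 1), Arid1a_KO_DDC minus WT_DDC, by group, with the number of genes in brackets. Points are genes, thin bars limma standard errors, red lines group medians and the dashed line the median of all genes tested (0.0034). Most ribosomal proteins lie slightly above 0 with bars that reach or approach it, and the widest bars belong to Eif2s3y, Rps3a2, Eif4ebp3 and Rpl29.

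Ribosomal protein transcripts lay slightly above the rest of the transcriptome in knockout livers. The median log2 difference was 0.16 over 85 tested ribosomal protein names, against 0.0034 over all genes, and 80 of the 85 were positive, against 50.6% of all genes. Genes of the ribosome vary together between libraries, so these are not 85 separate observations. Of the 43 proteins of the large subunit 42 were positive (median 0.16), of the 31 of the small subunit 28 (median 0.14) and of the 3 of the P stalk 3 (median 0.20). The 4 core proteins with a negative difference were Rpl3, Rps3, Rps16 and Rps18, at -0.04, -0.02, -0.0095 and -0.08. Without Arid1a_KO_DDC replicate 2 the median was 0.07 with 72 of 85 positive, and without WT_DDC replicate 1 it was 0.07 with 68 of 85 positive. Leaving out both, chosen after their values were seen, gave a median of -0.0072 with 39 of 85 positive, and taking away the highest knockout and the lowest wild-type library lowers a difference by construction. Quantile normalization gave 0.05 with 61 of 85 positive, against 53.9% of all genes, and relative to the median of all genes it gave 0.025. Scaling each library to the same summed FPKM gave 0.01 with 46 of 85 positive. That scaling moved the median of all genes to -0.12, and relative to it the ribosomal protein median was 0.13, against 0.15 relative to all genes without it.

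The library pattern was shared by most ribosomal proteins. Relative to each gene's mean over the 6 libraries, the median deviation of the 77 core ribosomal proteins was -0.00041, 0.24 and -0.02 log2 units in knockout replicates 1, 2 and 3 and -0.21, -0.03 and 0.05 in wild-type replicates 1, 2 and 3. Knockout replicate 2 was therefore the high library and wild-type replicate 1 the low one, and the remaining 4 libraries lay close together. Of the 77, 63 were highest in knockout replicate 2, against 17.4% of all genes, 55 were lowest in wild-type replicate 1, against 24.3%, and 50 did both, against 7.65%. Of the 48 initiation factors 9 were highest in knockout replicate 2, 11 were lowest in wild-type replicate 1 and 3 did both. The difference between these sets was not tested.

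**Figure D2:**
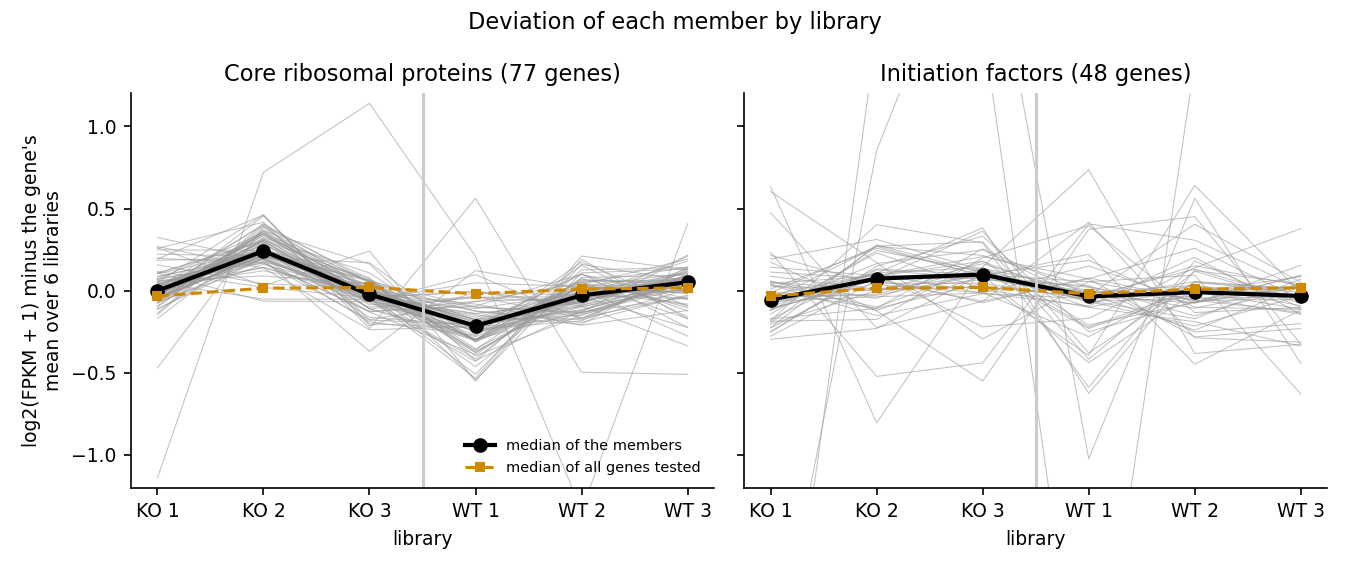
Deviation of log2(FPKM + 1) from the gene's mean over 6 libraries, for 77 core ribosomal proteins (left) and 48 initiation factors (right). Grey lines are genes, the black line their median and the dashed line the median of all genes tested. The axis ends at 1.2 log2 units on either side, and Rpl29, Eif2s3y and Eif4ebp3 run past it. The ribosomal protein lines rise together in KO 2 (0.24) and dip in WT 1 (-0.21).

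The summed level had the same highest and lowest library, while the order of the libraries between them differed. Ribosomal protein names summed to 60270, 70384 and 57783 FPKM in knockout replicates 1, 2 and 3 and to 49018, 59469 and 59517 FPKM in wild-type replicates 1, 2 and 3. One knockout library stood above and one wild-type library below a middle range in which the groups overlapped. As a share of all summed FPKM the values were 4.81%, 4.70% and 3.999% in knockout and 5.92%, 3.49% and 4.18% in wild-type libraries. On that scale wild-type replicate 1 was the highest library, and it was also the one with the smallest share of mt-Atp8. The library numbers in the labels put replicate 1 of both groups (L0566 and L0567) apart from replicates 2 and 3 (L0602 to L0605). Within L0566 and L0567 the ribosomal protein median was 0.23, from 1 library a group, and within L0602 to L0605 it was 0.13.

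Markers of dividing, erythroid and B cells also had high values in knockout replicate 2. The median deviation of the 14 tested proliferation markers was 0.41 log2 units in knockout replicate 2 and -0.41 in wild-type replicate 1, and the list summed to 120 to 161 FPKM in knockout and 84.9 to 118 FPKM in wild-type livers. For 4 tested erythroid markers of 7 in the table the same values were 0.80 and -0.40, with sums of 339 to 536 FPKM in knockout and 241 to 309 FPKM in wild-type livers, and Hbb-bt was listed at 0 in 1 library of each group. The 8 B and plasma cell markers were at -0.61, 1.24 and -0.89 in knockout replicates 1, 2 and 3 and at 0.33, 0.24 and 0.33 in wild-type replicates 1, 2 and 3, so knockout replicate 2 was high and the other knockout libraries low. Their median log2 difference was -0.36, with 7 of 8 negative and sums of 182 to 7866 FPKM in knockout and 1740 to 5732 FPKM in wild-type livers. By limma 0 genes of these 3 lists passed. At an unadjusted p under 0.05 there were 3 higher and 0 lower, against 4.65% and 6.5% of all genes. In total RNA, more cells of a type and more RNA per cell cannot be told apart, and the part of these cells in the ribosomal protein pattern was not tested.

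The lists for biliary cells, stromal cells and the other leukocytes also had negative medians. Of 11 biliary markers 2 fell, the tight junction gene Cldn4 and the keratin Krt23 (log2 differences -1.42 and -1.99, limma adjusted p = 0.0386 and 0.0447), against 0.355% of all genes, and the median was -0.61. Without WT_DDC replicate 1 both still passed, and with any 1 of the other 5 libraries left out neither did, with adjusted p of 0.0737 to 0.157 for Cldn4 and 0.0760 to 0.175 for Krt23. Neither gene passed with a pseudocount of 5, with no filter or with the replicate block. Both passed with a pseudocount of 0.1, the 3 scalings, TPM scaling without mt- genes, other eBayes settings and the library number term. With the filter at 5 FPKM Cldn4 passed and Krt23 was not tested. In L0602 to L0605 alone Cldn4 passed and Krt23 did not (limma adjusted p = 0.0475 and 0.0619). Without both Arid1a_KO_DDC replicate 2 and WT_DDC replicate 1 neither passed (0.0622 and 0.0878). The median log2 difference was -0.49 over 11 markers of macrophages and monocytes, -0.57 over 5 of T and NK cells, -0.80 over 3 of neutrophils, -0.52 over 12 of stellate cells and fibroblasts and -0.48 over 9 of sinusoidal endothelium. By limma 0 genes of these 5 lists passed. At an unadjusted p under 0.05 there were 0 higher and 8 lower, against 4.65% and 6.5% of all genes. No gene of these lists was listed at 0 in every library. Summed biliary markers were 243 to 450 FPKM in knockout and 189 to 439 FPKM in wild-type livers.

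Levels of the core ribosomal proteins spanned a wide range per unit of length. The mean over 6 libraries ran between 102 FPKM for Rps3 and 5210 FPKM for Rps27, with a median gene at 479 FPKM. Rps27, a small subunit protein with a zinc finger, was at 5446, 6037 and 5053 FPKM in knockout replicates 1, 2 and 3 and at 3612, 5745 and 5366 FPKM in wild-type replicates 1, 2 and 3. Only wild-type replicate 1 stood apart, and the groups overlapped (log2 difference 0.19, SE 0.23, adjusted p = 0.802). Rplp1, an acidic protein of the stalk that recruits elongation factors, came next, at 4083, 4666 and 3635 FPKM in knockout and 3070, 3928 and 3561 FPKM in wild-type livers. Its groups overlapped as well (0.23, SE 0.19, adjusted p = 0.709). Their exons cover 1043 bases for Rps27 and 499 bases for Rplp1 in GENCODE M21. Rps26, Rps12, Rpl41 and Rpl38 followed, with means over the 6 libraries of 2581, 2250, 2041 and 1896 FPKM and log2 differences of 0.16, 0.13, 0.13 and 0.22 (adjusted p = 0.819, 0.877, 0.835 and 0.721).

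Log2 differences of the large subunit proteins ran between -0.04 for Rpl3 and 0.48 for Rpl29, and 0 passed the test. Rpl9, a protein near the base of the stalk, had the smallest p of the subunit, with 404, 401 and 342 FPKM in knockout replicates 1, 2 and 3 against 327, 299 and 319 FPKM in wild-type replicates 1, 2 and 3. All 3 knockout libraries were above all wild-type libraries, without passing the test (0.28, SE 0.14, adjusted p = 0.521, and 0.13 to 0.35 over the alternatives). Rpl22, a protein that is dispensable for bulk translation but needed in lymphocyte development, was at 531, 665 and 527 FPKM in knockout and 403, 526 and 522 FPKM in wild-type livers. The groups just failed to overlap, with knockout replicate 3 next to wild-type replicate 2 (0.25, SE 0.18, adjusted p = 0.661). Rpl39 was at 0.11. The Rpl22 paralog Rpl22l1 averaged 78.6 ± 11.6 FPKM in knockout and 78.5 ± 9.95 FPKM in wild-type livers (SD, n = 3 each), with a log2 difference of 0.00047. Rpl30 and Rpl37 were at 0.35 and 0.29 (adjusted p = 0.59 and 0.648), with wild-type replicate 1 the low library for Rpl30. Rpl3, the protein closest to the peptidyl transferase centre, was the steadiest of all core proteins, with a highest library 1.07 times the lowest.

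Among small subunit proteins, Rps19, whose loss of function in humans causes Diamond-Blackfan anaemia, had the smallest p. It was at 345, 419 and 341 FPKM in knockout replicates 1, 2 and 3 and at 249, 296 and 345 FPKM in wild-type replicates 1, 2 and 3, with overlapping groups (0.32, SE 0.18, adjusted p = 0.563). Rps7 was at 0.32 and Rpsa at 0.21 (adjusted p = 0.582 and 0.636). Rps6, the substrate of S6 kinases and a common readout of mTOR activity at the protein level, averaged 670 ± 68.1 FPKM in knockout and 616 ± 47.7 FPKM in wild-type livers (SD, n = 3 each), a difference of 0.12 (SE 0.15, adjusted p = 0.816). Rps4x, an X-linked protein, was at 0.06. Rps27l, the paralog of Rps27 and a p53 target, was at 769, 1031 and 836 FPKM in knockout replicates 1, 2 and 3 and at 605.2, 803 and 734 FPKM in wild-type replicates 1, 2 and 3. Its groups overlapped in 1 wild-type library (0.30, SE 0.19, adjusted p = 0.612). Among the other paralogs Rpl36al was at 0.24 and Rpl7l1 at 0.22. Rps27a, which is made as a fusion with ubiquitin, was at 0.19 (adjusted p = 0.686).

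Some genes with ribosomal protein names varied far more than the rest, and they were chosen after their values were seen, except Rps27rt. Rpl29 was at 145, 528 and 706 FPKM in knockout replicates 1, 2 and 3 and at 370, 126 and 425 FPKM in wild-type replicates 1, 2 and 3. The low libraries came from both groups, and the highest was 5.60 times the lowest (log2 difference 0.48, SE 0.69, adjusted p = 0.836). Rps29, a small zinc-binding protein, was at 548, 612 and 390 FPKM in knockout and 677, 324 and 322 FPKM in wild-type livers. It is the 1 other core protein with a range of more than 2-fold, and 75 of 77 stayed under it. Every other core protein moved in a narrow band, with a median ratio of the highest to the lowest library of 1.43.

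Rps27rt, Rps3a2, Rps3a3 and Rps4l have exons that fill their whole span in GENCODE M21, with no intron, and resemble the expressed genes they are named for, so the split of reads between copies is uncertain. Rps27rt (chromosome 9, 114982366 to 114982739 on GRCm38) was at 2.52, 9.43 and 8.35 FPKM in knockout replicates 1, 2 and 3 and at 2.62, 1.99 and 2.08 FPKM in wild-type replicates 1, 2 and 3. Knockout replicates 2 and 3 were high and knockout replicate 1 lay within the wild-type range (1.12, SE 0.40, adjusted p = 0.369). The gene passed in the libraries L0602 to L0605 alone (1.70, adjusted p = 0.0475) and without knockout replicate 1 (1.62, adjusted p = 0.0325). Rps3a2 was at 0.127, 20.8 and 17.4 FPKM in knockout and 17.0, 14.8 and 0.277 FPKM in wild-type livers. It was thus nearly absent in 1 library of each group and similar in the other 4, whatever the genotype. Rpl37rt and Rps3a3 did not reach the level for testing, and Rps3a3 was listed at 0 in replicate 1 of both groups.

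**Figure D3:**
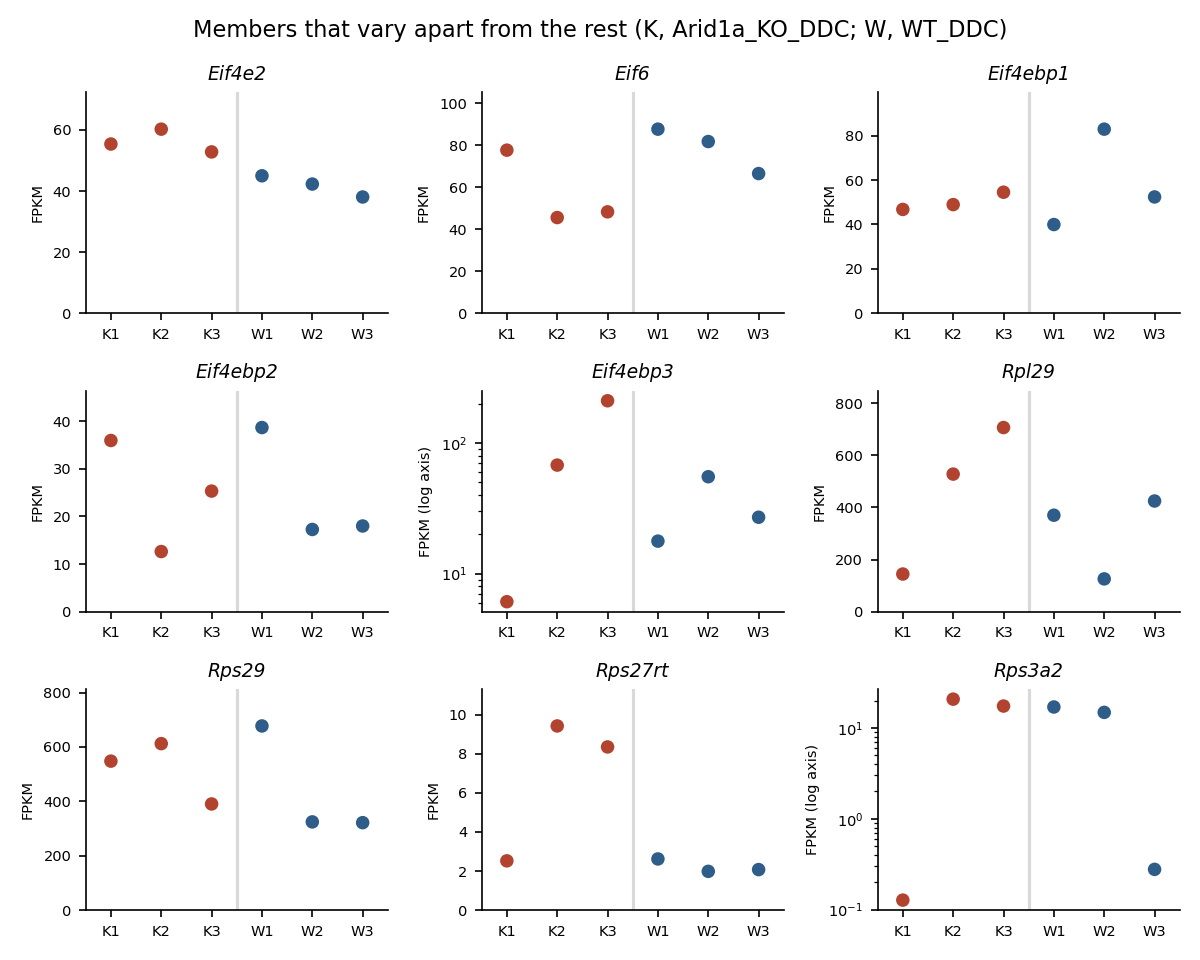
FPKM of 9 members in the 6 libraries (K, Arid1a_KO_DDC, red; W, WT_DDC, blue), with a log axis for Eif4ebp3 and Rps3a2. Eif4e2 is above 50 FPKM in all 3 knockout libraries and below it in all wild-type libraries, while the low libraries of Rpl29 and Rps3a2 come from both groups.

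Initiation factors had a median log2 difference of 0.08, with 35 of 48 positive. Scaling to the same summed FPKM gave -0.053 with 17 of 48 positive, but it moved all genes to a median of -0.12, and relative to all genes the initiation factors were at 0.07 both with and without it. Without Arid1a_KO_DDC replicate 3 the median was 0.04 with 27 of 48 positive. It was -0.0029 within L0566 and L0567, from 1 library a group, and 0.13 within L0602 to L0605. In 5 every knockout library was above every wild-type library and in 0 the reverse held, against 7.09% and 9.56% of all genes. Their levels ran between 3.91 FPKM for Eif3j1 and 717 FPKM for Eif1, with a median of 33.2 FPKM, well under the ribosomal proteins. Eif1, which keeps the scanning ribosome from starting at poor codons, was the highest, at 616, 924 and 855 FPKM in knockout replicates 1, 2 and 3 and 465, 792 and 651 FPKM in wild-type replicates 1, 2 and 3. The groups overlapped (0.34, SE 0.25, adjusted p = 0.678). Eif1a, an Eif1ax relative on chromosome 18, was at -0.28 (SE 0.18, adjusted p = 0.612), and Eif1b at 0.24. Eif1ad, which is named for its eIF1A domain and in human cells acts in small subunit maturation, averaged 11.4 ± 0.501 FPKM in knockout and 9.17 ± 1.39 FPKM in wild-type livers (SD, n = 3 each), with groups that did not overlap (0.29, SE 0.15, adjusted p = 0.51).

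The gamma subunit of eIF2, which binds GTP and the initiator tRNA, is encoded by Eif2s3x on the X and Eif2s3y on the Y chromosome, and its transcripts split the libraries by replicate number. Eif2s3y was at 0.041, 25.6 and 26.6 FPKM in knockout replicates 1, 2 and 3 and at 0.19, 22.4 and 23.5 FPKM in wild-type replicates 1, 2 and 3. Replicate 1 of both groups thus had next to none, and the other 4 libraries were alike. Eif2s3x, which escapes X inactivation in mice, went the other way, at 33.3, 20.1 and 22.6 FPKM in knockout and 32.0, 19.2 and 18.9 FPKM in wild-type livers. Its level in replicate 1 of either group was above every value in replicates 2 and 3. The sum of both copies was 33.3, 45.7 and 49.3 FPKM in knockout and 32.1, 41.7 and 42.3 FPKM in wild-type livers, so the libraries with the Y copy had the higher sum. Where the Y copy was present it made up 54.1% and 56.0% of the sum in knockout and 53.8% and 55.4% in wild-type livers. The labels used here give no sex, the split is balanced over genotype, and it falls on the same libraries as the library numbers, so sex and library number cannot be told apart. The copies are similar in sequence, and reads shared between them make each value uncertain. Neither copy passed the test between genotypes (0.12, SE 0.27 for Eif2s3x and 0.06, SE 1.63 for Eif2s3y, adjusted p = 0.9 and 0.993).

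**Figure D4:**
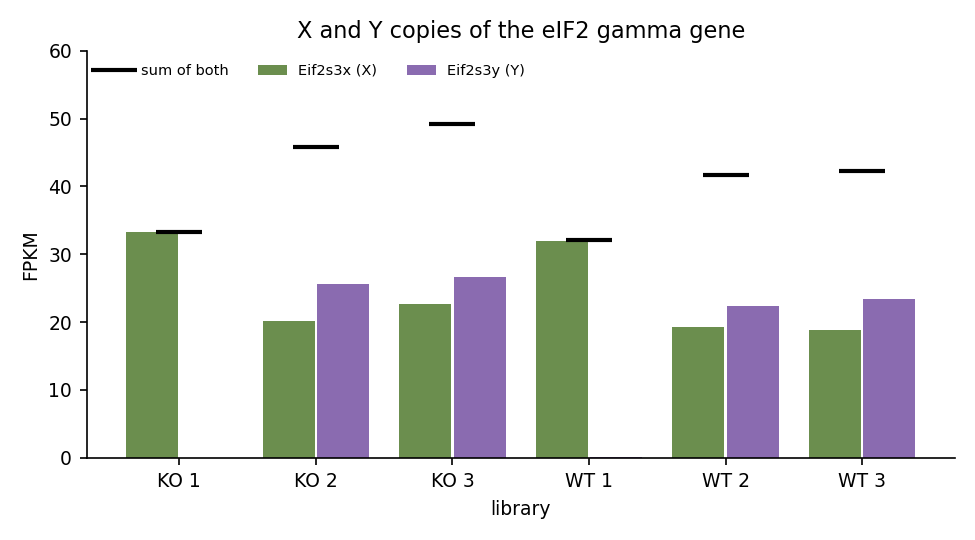
FPKM of Eif2s3x (green) and Eif2s3y (purple) in each library, with their sum as a black line. Replicate 1 of both groups has 32.0 to 33.3 FPKM of the X copy and under 1 FPKM of the Y copy, and the other 4 libraries have 18.9 to 22.6 FPKM of the X copy and 22.4 to 26.6 FPKM of the Y copy.

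The other eIF2 subunits moved little. Eif2s1, the alpha subunit that stress kinases phosphorylate, was at 13.3, 13.7 and 13.8 FPKM in knockout replicates 1, 2 and 3 and 12.6, 10.7 and 13.1 FPKM in wild-type replicates 1, 2 and 3, a gap between the groups smaller than the spread within wild type (0.16, SE 0.13, adjusted p = 0.711). Eif2s2, the beta subunit, was at 0.02 (SE 0.13, adjusted p = 0.969). Eif2d and Eif2a, which have been described to deliver initiator tRNA in place of eIF2, were at 0.25 and 0.06. Of the eIF2B subunits, the exchange factor, Eif2b3 and Eif2b4 were at 0.29 and 0.31, Eif2b1 at 0.11, Eif2b2 at -0.33 and the catalytic Eif2b5 at -0.03, with adjusted p of 0.555 or more.

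Transcripts of the eIF3 subunits, which form 1 complex, ranged between 18.5 FPKM for Eif3a, the largest scaffold, and 107 FPKM for Eif3k, apart from the loosely bound Eif3j. Eif3j1 and Eif3j2 were at 3.91 and 6.99 FPKM, and as Eif3j2 is a near copy of Eif3j1 the split between them is uncertain. All 14 eIF3 members kept a ratio of the highest to the lowest library under 2, with a median of 1.27, and 11 of 14 differences were positive (median 0.09). Eif3m had the smallest p, at 0.21 (SE 0.14, adjusted p = 0.648). Eif3i, a WD-repeat subunit, averaged 95.7 ± 3.10 FPKM in knockout and 87.7 ± 4.34 FPKM in wild-type livers without overlap (SD, n = 3 each), but the difference was 0.12 (SE 0.12, adjusted p = 0.746). Eif3b, Eif3k and Eif3h were at 0.13, 0.15 and -0.03.

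Eif4e2, a cap-binding relative of eIF4E that represses translation and serves translation in hypoxia, had the smallest p of all members. It was at 55.4, 60.2 and 52.8 FPKM in knockout replicates 1, 2 and 3 and at 45.0, 42.3 and 38.0 FPKM in wild-type replicates 1, 2 and 3. Every knockout library was above every wild-type library. The log2 difference was 0.42 (SE 0.13, unadjusted p = 0.0155, adjusted p = 0.304), and under the alternatives it was 0.27 to 0.48, with adjusted p of 0.184 or more. It held the same sign within L0566 and L0567 (0.29) and within L0602 to L0605 (0.48). The canonical cap-binding protein gene Eif4e had 22.8, 27.96 and 24.5 FPKM in knockout and 27.0, 16.6 and 21.1 FPKM in wild-type livers, with overlapping groups (0.23, SE 0.20, adjusted p = 0.714).

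Among the remaining eIF4F genes, the helicase Eif4a1 was one of the steadiest members, with 219 ± 12.9 FPKM in knockout and 221 ± 8.36 FPKM in wild-type livers (SD, n = 3 each). Its paralog Eif4a2, which is linked to microRNA repression, was at 0.21 (SE 0.19, adjusted p = 0.721). The scaffold Eif4g1 was at 0.04, and its relatives Eif4g2 and Eif4g3 at -0.23 and -0.19 (adjusted p = 0.695 and 0.704). Eif4g2, also called DAP5, supports initiation without the cap-binding protein.

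Among the 4E-binding proteins, which sequester eIF4E until mTOR phosphorylates them, Eif4ebp3 and Eif4ebp2 varied most between libraries. Eif4ebp3, on chromosome 18, was at 6.10, 67.9 and 211 FPKM in knockout replicates 1, 2 and 3 and at 17.8, 55.3 and 27.0 FPKM in wild-type replicates 1, 2 and 3. The knockout group held both the lowest and the highest library, which differed 34.6-fold. Its difference was 0.60 with an SE of 1.16 (adjusted p = 0.882), 1.97 without knockout replicate 1 and -0.48 without knockout replicate 3. Eif4ebp1 was at 46.8, 48.9 and 54.5 FPKM in knockout and 40.0, 82.9 and 52.4 FPKM in wild-type livers, with wild-type replicate 2 the high library (-0.16, SE 0.26, adjusted p = 0.862, and 0.12 without that library). Eif4ebp2 was high in replicate 1 of both groups, at 35.9, 12.6 and 25.3 FPKM in knockout and 38.6, 17.3 and 18.0 FPKM in wild-type livers (-0.02, SE 0.44, adjusted p = 0.991). Eif4enif1, which shuttles eIF4E into the nucleus, was at 0.12, with a highest library only 1.35 times the lowest.

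Eif6, which keeps the large subunit from joining too early and limits initiation in liver, had the lowest difference of all members. It was at 77.7, 45.6 and 48.3 FPKM in knockout replicates 1, 2 and 3 and at 87.7, 81.8 and 66.6 FPKM in wild-type replicates 1, 2 and 3. Knockout replicates 2 and 3 were the low libraries, and knockout replicate 1 lay inside the wild-type range (-0.48, SE 0.23, adjusted p = 0.498). It was negative under every alternative run, between -0.72 and -0.26. Eif5a, the hypusinated factor that relieves stalled ribosomes, was the steadiest member, with 373 ± 6.05 FPKM in knockout and 359 ± 3.88 FPKM in wild-type livers (SD, n = 3 each). Its groups did not overlap, and the difference was 0.05 (SE 0.12, adjusted p = 0.907). Eif5 and Eif5b were at -0.11 and 0.02.

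**Figure D5:**
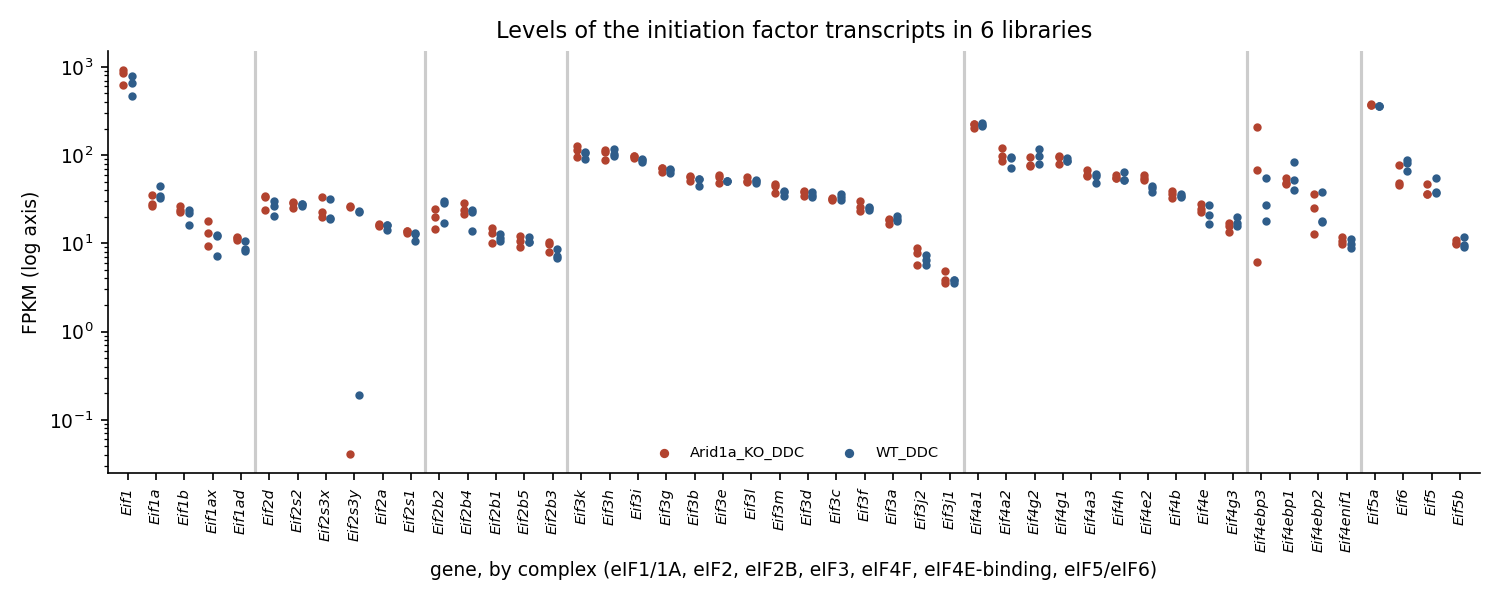
FPKM of the 48 initiation factor genes on a log axis, grouped by complex and ordered by mean level, with a point per library (red, Arid1a_KO_DDC; blue, WT_DDC). Most genes keep their 6 libraries close together, while Eif2s3y and Eif4ebp3 spread widely.

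Other genes of the pathway were likewise not called. Of 39 ribosome biogenesis factors 0 passed by limma (lowest adjusted p = 0.314). By unadjusted p under 0.05, 3 were higher and 0 lower, against 4.65% and 6.5% of all genes. Of the 39, 32 were positive, with a median of 0.15. Nop56, a core protein of box C/D particles that guide ribosomal RNA methylation, was at 27.2, 31.2 and 28.4 FPKM in knockout replicates 1, 2 and 3 against 21.0, 23.4 and 20.8 FPKM in wild-type replicates 1, 2 and 3. Its groups did not overlap (0.39, SE 0.13, adjusted p = 0.314). In 9 of the 39 every knockout library was higher and in 1 lower, against 7.09% and 9.56% of all genes, and Rrp9, Rrs1 and Nop2, other assembly factors, were at 0.35, 0.44 and 0.60. The median deviation of the list in knockout replicates 1, 2 and 3 was 0.11, 0.06 and 0.05 log2 units. Of the 39, 12 were highest in knockout replicate 2, against 17.4% of all genes. In wild-type replicate 1, 16 were lowest, against 24.3%, and 8 did both, against 7.65%.

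Of 12 genes listed as elongation and termination factors 0 passed, and the median was 0.14. By unadjusted p under 0.05, 2 were higher and 0 lower, against 4.65% and 6.5% of all genes. The 2 were Eef1b2 and Eef1e1, the second with overlapping groups (0.52, SE 0.21, limma adjusted p = 0.43). Eef1b2, the exchange factor of eEF1A and a TOP transcript, was at 238, 271 and 240 FPKM in knockout replicates 1, 2 and 3 and at 164, 207 and 207 FPKM in wild-type replicates 1, 2 and 3, without overlap (0.38, SE 0.15, adjusted p = 0.43). Eef1g, of the same complex, was at 0.30. Of 16 other TOP transcripts, some of them in the lists above, 0 passed (1 higher and 0 lower by unadjusted p under 0.05), the median was 0.15, and in 5 the knockout libraries were above all wild-type libraries and in 0 below, against 7.09% and 9.56% of all genes. Npm1 and Pabpc1 were at 0.22 and 0.18.

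Of 27 genes of mTOR and eIF2 kinase control 0 passed, and the median was 0.03. By unadjusted p under 0.05, 3 were higher and 0 lower, against 4.65% and 6.5% of all genes. Sesn2, a leucine sensor that restrains the mTOR pathway, was at 5.72, 4.52 and 4.26 FPKM in knockout replicates 1, 2 and 3. In wild-type replicates 1, 2 and 3 it was at 3.61, 2.62 and 2.30 FPKM, without overlap (0.61, SE 0.18, adjusted p = 0.291). Pdcd4, an inhibitor of eIF4A, and Eif2ak2, an interferon-induced eIF2 kinase, were at 0.45 and 0.54 (adjusted p = 0.355 and 0.391). Of 12 tested ATF4 targets, the genes induced when eIF2 is phosphorylated, 0 passed (1 higher, Sesn2, and 0 lower by unadjusted p under 0.05) and 5 were positive, with a median of -0.08 and Atf4 itself at -0.15 (adjusted p = 0.716).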

How the data were processed

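The authors deposited log2 values of FPKM for 14499 genes in a table with a column for every library. TopHat2 2.0.6, Cufflinks, mm10 and GRCm38 are named, per the submitters' processing notes, without their order, settings or annotation. The lowest value is log2 of an added offset (0.000977), which was subtracted. All columns were matched to samples.

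Values were taken to log2(FPKM + 1), which understates differences of low genes. Genes with at least 1 FPKM in at least 3 of 6 libraries (11839) entered a fit with limma 3.58.1 (R 4.3.3) (eBayes with trend, two-sided, Benjamini-Hochberg over all genes, threshold 0.05), after a check on simulated data. Differences are knockout minus wild type; an exact test of 3 against 3 libraries cannot go below p = 0.1. Named members were those past the threshold, in each group the 4 of smallest p and 2 of highest level, and a fixed list of key genes; others are named for a count they make up, or after their values were seen (Rpl29, Rps29, Rps3a2, Rps4l, Eif3a, Eif3j1, Eif3j2). Members and lists were chosen with earlier results of these data known. Relative depth came from steps of values under 0.3 FPKM. Alternatives were pseudocounts of 0.1 and 5, no filter or 5 FPKM, 3 scalings, other eBayes settings, a replicate block, library number terms and left-out libraries. Positions are GENCODE M21, start sites RefSeq on GRCm38.p6. Figures were drawn with matplotlib 3.10.9.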

Additional observations from a re-analysis of the deposited data

How the results depend on the processing

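Over the 20 alternatives the number of members called lower was 0 throughout, and the number called higher was 0 except for 1, Rps27rt, in the libraries L0602 to L0605 alone and without Arid1a_KO_DDC replicate 1 (0 to 1 with libraries left out). Genes of the other translation lists stayed at 0. Calls over all genes, 58, were 12 with no filter, 92 with the library number term and 0 to 67 with a library left out, with 35 without WT_DDC replicate 1, 6 and 2 without WT_DDC replicates 2 and 3, and 0 without Arid1a_KO_DDC replicate 3. Positive ribosomal protein names, 80, were 61 with quantile normalization and 46 with TPM scaling. They were 68 to 82 with 1 library left out and 39 without Arid1a_KO_DDC replicate 2 and WT_DDC replicate 1. Positive initiation factors, 35, were 17 with TPM scaling, 27 to 36 with 1 library left out and 39 in L0602 to L0605 alone, and their median was -0.053 with TPM scaling, 0.011 with TPM scaling without mt- genes and 0.04 to 0.10 with 1 library left out. These scalings moved the median of all genes to -0.12 and -0.06, and relative to all genes the initiation factors were at 0.07 in each. The ribosomal protein median was 0.05 with quantile normalization, or 0.025 relative to all genes. It was 0.07 to 0.21 with 1 library left out and -0.0072 without both of the libraries named above. The replicate block gave 0 calls over all genes (at an unadjusted p under 0.05, 776 genes were higher and 942 lower) and 0 members. Deviations of same-numbered libraries correlated at 0.35, 0.13 and 0.02, and not every library correlated best with its own number. They were taken from the mean of each group of 3 libraries, which ties them together, so they cannot decide whether the numbers pair the libraries. Medians do not change under the block. TPM scaling without mt- genes, and leaving out Arid1a_KO_DDC replicate 2 with WT_DDC replicate 1, were chosen after seeing the data. Absolute depth is unknown, so no counting interval is given.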

Other observations

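Initiation factors with and without a pyrimidine run within 5 bases of a RefSeq start are counted here by library pattern. Of 10 such genes 2 were highest in Arid1a_KO_DDC replicate 2 and 2 lowest in WT_DDC replicate 1, with a median log2 difference of 0.07. Of 28 without the run 6 were highest in the first of these libraries and 8 lowest in the second, with a median of 0.09. Among all genes 17.4% were highest in Arid1a_KO_DDC replicate 2 and 24.3% lowest in WT_DDC replicate 1. The run was present in 26.3% of initiation factor genes, near the 23.9% of protein-coding genes. It therefore cannot be taken as a mark of TOP transcripts in this set, and the counts cannot show whether such transcripts stand apart. These are counts of a few genes, with no test.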
